A study of Mus musculus with 8 samples.

Results

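The genes described here encode the secreted and membrane-bound metalloproteases that cut the extracellular matrix and cell surface proteins, together with their tissue inhibitors. They were chosen by symbol alone, as the matrix metalloproteinases (Mmp), the disintegrin and metalloproteinases (Adam), their relatives with thrombospondin repeats (Adamts), the ADAMTS-like proteins that carry the same symbol stem (Adamtsl), and Timp1 to Timp4. The rule found 84 of 23372 genes, made up of 23 Mmp, 33 Adam, 19 Adamts, 5 Adamtsl and 4 Timp genes. Their RNA was measured in brown adipose tissue, the heat-producing fat, of 8 C57BL/6 N mice aged 10 weeks. The knockout group was 4 mice in which floxed Lsd1 alleles had been crossed with a Ucp1-Cre transgene (libraries 512, 513, 515 and 516). The control group was 4 mice labelled as carrying the floxed Lsd1 alleles (libraries 511, 514, 517 and 518), with nothing said of a Cre transgene. Lsd1, listed under its gene symbol Kdm1a, encodes a histone demethylase of transcriptional repressor complexes. Because Ucp1 is a gene of brown adipocytes, other cells of the tissue, such as fibroblasts, macrophages and vessel cells, are not targeted, and the libraries hold RNA of all of them.

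Kdm1a itself had 13.1 ± 0.711 CPM in knockout tissue and 35.4 ± 1.52 CPM in control tissue (SD, n = 4 each), which is -1.43 on the log2 scale (SE 0.0743, adjusted p = 2.66e-05 by edgeR). Each library held 33011022 to 38756920 counts over all transcript rows. CPM here is a library's count scaled to its TMM-adjusted total. A log2 fold change sets knockout over control, and its SE, the standard error, is approximate. A gene was called where its edgeR adjusted p over all 14178 tested genes was under 0.05. The labels give the libraries of a group only as separate samples, so a p-value here covers the spread between those samples and nothing beyond it. In bulk RNA, fewer cells of a type and less RNA per cell cannot be told apart.

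Matrix metalloproteinases are made as inactive zymogens whose prodomain keeps the catalytic zinc covered until it is cut away. Most are secreted, while the membrane-type members stay on the cell surface and can activate others there. ADAM proteases are sheddases that release growth factors, cytokines and receptors from the membrane, although several members lack a working active site and serve in adhesion. ADAMTS proteases process procollagens, proteoglycans and microfibril proteins, and ADAMTS-like proteins resemble their ancillary domains without a protease domain. TIMPs bind the active site of these proteases, and TIMP3 stays bound to the matrix and also inhibits ADAM17 and several ADAMTS members. In adipose tissue these enzymes are known for the remodelling of the matrix that goes with fat expansion and vessel growth.

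Of the 84 genes, 51 had enough counts to be tested and 33 did not. The untested genes had a mean of at most 0.208 CPM over the 8 libraries, and 17 of them had no count in any library, 12 Adam genes and 5 Mmp genes. A count of 0 allows up to 0.112 to 0.132 CPM per library (3 counts, counting error only). Among those without a count were Adam7, Adam18, Adam24 and Adam30, known from mouse testis or epididymis, and Mmp20, the enamel protease. Mmp7 and Mmp10, which encode matrilysin and stromelysin-2, were also without a count. Untested genes with a few counts included Mmp8, the neutrophil collagenase, Mmp16, Adamts8 and Adam28.

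Among the 51 tested genes 18 rose and 2 fell in knockout tissue, and 31 were not called. Over all tested genes 34.4% were called, 15.4% as higher and 18.9% as lower. Among the tested protease and inhibitor genes 39.2% were called, 35.3% as higher and 3.92% as lower. In 18 genes (35.3%) all 4 knockout libraries lay above all 4 control libraries, as in 15.7% of all tested genes, and in 2 genes (3.92%) they all lay below, as in 19.7% of all tested genes. The median log2 fold change was 0.36, with 38 genes above 0 and 13 below, and -0.01 over all tested genes. With library sizes alone in place of TMM factors, the members split into 27 higher and 1 lower and all genes into 4077 higher and 930 lower, against 2189 higher and 2682 lower with TMM factors. With upper quartile factors the members split into 24 and 1, and all genes into 2915 and 1625. Library sizes alone put the all-gene median 0.20 higher and upper quartile factors 0.10 higher, and the members' median stood 0.38 and 0.37 above it, against 0.37 above it with TMM factors.

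**Figure D1:**
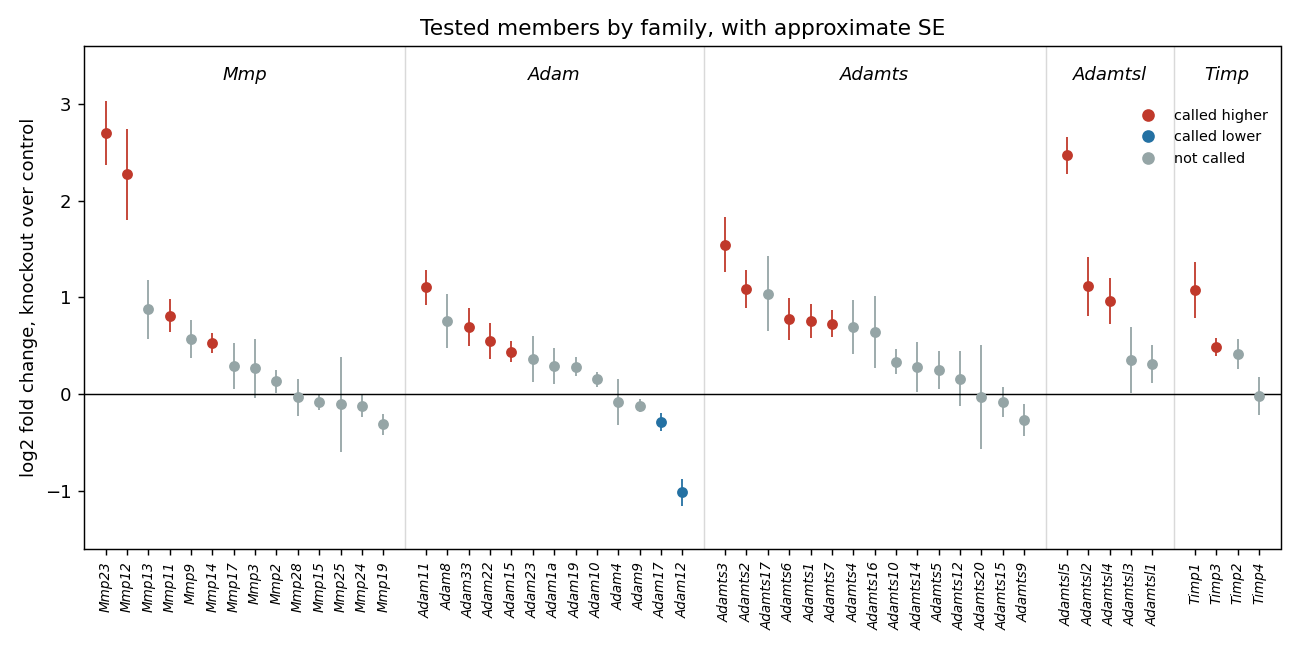
Log2 fold change of knockout over control (vertical axis) of the 51 tested genes, ordered within each family, with bars of 1 approximate SE. Red points mark the 18 genes called higher, blue points the 2 called lower, Adam17 and Adam12, and grey points the 31 not called; Mmp23, Adamtsl5 and Mmp12 stand highest.

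By family, 4 of 14 tested Mmp genes rose and 0 fell, with a median log2 fold change of 0.28. Among 13 tested Adam genes 4 rose and 2 fell (median 0.29). Among 15 tested Adamts genes 5 rose and 0 fell (median 0.64), and among the 5 Adamtsl genes 3 rose and 0 fell (median 0.96). Of the 4 Timp genes 2 rose and 0 fell (median 0.45). Both genes that fell were Adam genes, and differences between the families' counts were not tested.

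The starts of the genes with the highest fold changes were looked at in the RefSeq promoter table (build GRCm38.p6), which holds 250 bases before and 50 bases after each annotated start. It held 53 of the 84 genes and 34 of the 51 tested ones, and the annotated start lay within 100 bases of the start of the counted transcript in 32 of those 34. The AP-1 element through which many Mmp genes are known to be induced was searched on both strands as TGANTCA. The core promoter element of many inducible genes was searched as TATAAA. Sites of the Sp factor type were searched as GGGCGG, and E-boxes as CACGTG. Matches of these motifs can share letters only at their ends. Mmp23 and Adamtsl5 are shown because they rose most, and Mmp12, Mmp13 and Mmp3 because they are the 3 tested genes of the Mmp cluster on chromosome 9. Capitals mark motif matches, and all are printed 5′ to 3′ along the gene's own strand. The Mmp23 window is chr4:155653335-155653634 (minus strand), that of Adamtsl5 chr10:80348399-80348698 (minus strand), and those of Mmp12, Mmp13 and Mmp3 are chr9:7347124-7347423, chr9:7272264-7272563 and chr9:7445572-7445871 (plus strand).
Mmp23: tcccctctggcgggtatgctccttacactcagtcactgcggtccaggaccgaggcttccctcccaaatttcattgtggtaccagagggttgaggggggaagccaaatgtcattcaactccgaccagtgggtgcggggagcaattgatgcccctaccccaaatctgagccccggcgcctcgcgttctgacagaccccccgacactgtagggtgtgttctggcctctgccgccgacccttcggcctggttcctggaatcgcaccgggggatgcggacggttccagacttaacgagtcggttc
Adamtsl5: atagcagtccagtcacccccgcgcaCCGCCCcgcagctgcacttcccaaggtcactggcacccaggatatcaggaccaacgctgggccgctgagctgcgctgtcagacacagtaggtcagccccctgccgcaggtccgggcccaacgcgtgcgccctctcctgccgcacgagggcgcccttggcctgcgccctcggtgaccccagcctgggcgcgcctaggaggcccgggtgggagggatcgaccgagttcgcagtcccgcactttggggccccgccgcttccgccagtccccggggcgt
Mmp12: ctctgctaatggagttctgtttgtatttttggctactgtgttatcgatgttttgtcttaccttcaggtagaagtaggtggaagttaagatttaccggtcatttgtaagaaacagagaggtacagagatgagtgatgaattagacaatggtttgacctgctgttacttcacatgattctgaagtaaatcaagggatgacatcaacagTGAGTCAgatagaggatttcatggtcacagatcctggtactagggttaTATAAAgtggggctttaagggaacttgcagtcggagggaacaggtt
Mmp13: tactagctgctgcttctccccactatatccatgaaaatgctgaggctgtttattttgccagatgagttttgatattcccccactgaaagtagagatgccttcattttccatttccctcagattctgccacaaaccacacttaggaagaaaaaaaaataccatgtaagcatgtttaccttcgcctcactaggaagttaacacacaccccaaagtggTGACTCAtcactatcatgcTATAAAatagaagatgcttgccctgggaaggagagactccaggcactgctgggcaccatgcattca
Mmp3: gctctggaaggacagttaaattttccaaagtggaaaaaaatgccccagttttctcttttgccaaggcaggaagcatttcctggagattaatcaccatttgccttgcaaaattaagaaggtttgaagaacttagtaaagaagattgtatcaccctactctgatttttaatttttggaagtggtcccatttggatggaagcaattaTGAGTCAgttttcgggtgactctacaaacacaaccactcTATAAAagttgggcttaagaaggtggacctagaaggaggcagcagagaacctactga

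In these windows the Mmp23 promoter held none of the 4 motifs and had 61.0% G and C. The Adamtsl5 promoter held a single GGGCGG match on the reverse strand and had 72.0% G and C. The 3 windows on chromosome 9 each held TGANTCA and TATAAA and had 40.0% to 43.7% G and C. Counted from the annotated start, TATAAA lay at position 4 in Mmp12, -16 in Mmp13 and -7 in Mmp3. Whether these matches act as core promoter elements was not tested. Of the 10 Mmp genes in this cluster (7272514 to 7699416 in the counted transcripts, mm10), 8 held both motifs, against 1.54% of all 32851 promoters in the table and 0.615% of 10576 tested genes. Among the 34 tested members with a promoter, 4 held TGANTCA (11.8%) and 24 held GGGCGG (70.6%), against 4.95% and 64.2% of the tested genes. Among the 19 untested members with a promoter, 9 held TGANTCA (47.4%), 10 held TATAAA (52.6%) and 2 held GGGCGG (10.53%). TGANTCA was found in 1 of the 14 members called higher that had a promoter, Mmp12.

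Timp3 and Timp4 had the highest levels per length among these genes. Timp3 had 72.5 CPM per kilobase of exon in knockout tissue and 51.5 in control tissue, and Timp4 had 64.3 and 65.1. Timp2 had 21.3 CPM per kilobase in knockout and 16.0 in control tissue, and Timp1 had 1.36 and 0.643. Summed over the 4 genes, TIMP RNA was 159.5 ± 10.98 CPM per kilobase in knockout libraries and 133.2 ± 21.6 in control libraries (SD, n = 4 each). These ranges overlapped, at 148.0 to 173.7 in knockout and 115.1 to 161.2 in control libraries. TIMP RNA was also set over the summed RNA of all Mmp, Adam, Adamts and Adamtsl genes, both per kilobase. That sum includes ADAMs and ADAMTS-like genes without protease activity, so the ratio is no balance of inhibitors to active proteases. The ratio was 0.549 to 0.649 in knockout and 0.546 to 0.798 in control libraries, which also overlap.

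Timp3 had 310.3, 337, 352 and 355 CPM in knockout libraries 512, 513, 515 and 516, against 245, 271, 204 and 243 CPM in control libraries 511, 514, 517 and 518. All knockout libraries lay above all control libraries, and Timp3 rose by 0.49 (SE 0.0940, edgeR adjusted p = 0.00452). Timp1, the inducible secreted inhibitor, had 0.842, 0.903, 1.30 and 1.72 CPM in knockout and 0.585, 0.439, 0.705 and 0.528 CPM in control libraries, in the same order. Timp1 rose by 1.08 (SE 0.292, edgeR adjusted p = 0.0203) without overlap, but its call was lost without knockout library 515 (0.0532) or 516 (0.0564). Timp2, which also takes part in the activation of pro-MMP2 by MMP14, had 67.7, 61.2, 84.3 and 94.4 CPM in knockout and 58.5, 45.3, 63.4 and 63.5 CPM in control libraries. The groups overlapped, and Timp2 was not called (log2 fold change 0.42, edgeR adjusted p = 0.0654). It was called in 4 of 17 alternatives, namely without knockout library 513 (0.0419) and with upper quartile factors (0.0318), library sizes alone (0.0150) or DESeq2 (0.0353). Timp4 spread widely, with 106, 81.4, 76.6 and 97.7 CPM in knockout and 98.2, 127, 74.7 and 66.1 CPM in control libraries (log2 fold change -0.02, edgeR adjusted p = 0.957). Its sign was not fixed, since it turned positive under 8 of 17 alternative settings.

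**Figure D2:**
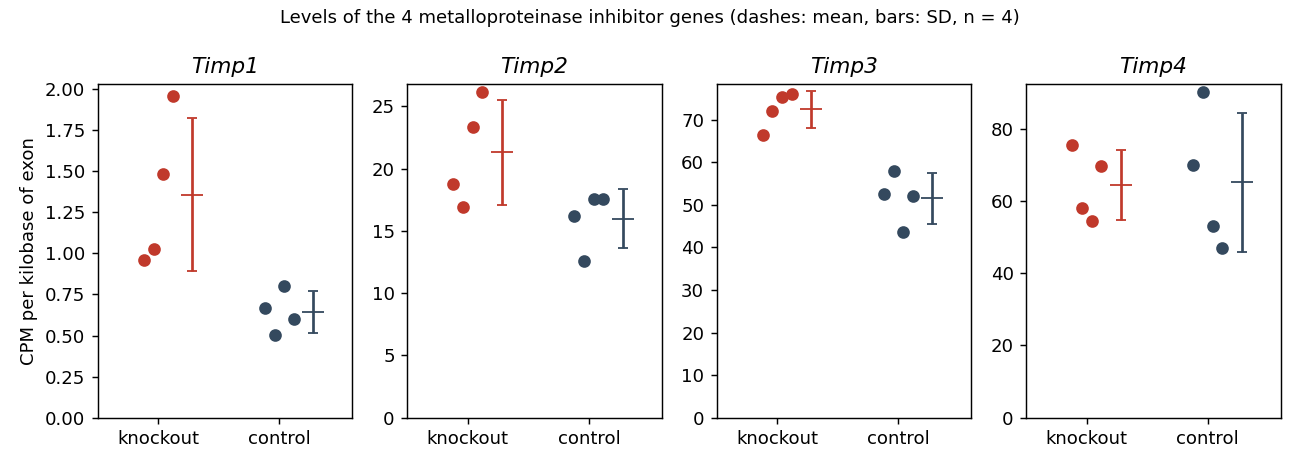
CPM per kilobase of exon (vertical axes, each from 0) of the 4 inhibitor genes in knockout (red, left) and control (dark, right) libraries, 1 point per library, with mean and SD beside the points. Timp3 averages 72.5 in knockout and 51.5 in control libraries without overlap, whereas the Timp4 groups overlap.

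Within TIMP RNA, Timp3 made up 41.1% to 48.7% in knockout and 36.0% to 44.4% in control libraries. Timp1, Timp3 and Timp4 lie within the synapsin genes Syn1, Syn3 and Syn2, on the opposite strand. The counts used both strands, but the exons of Timp1 and Timp3 shared no bases with exons of the host genes, and those of Timp4 shared 1.53%. The host genes themselves, which encode synaptic vesicle proteins, were not called. Their log2 fold changes were -0.04 for Syn1 (edgeR adjusted p = 0.953), 0.51 for Syn2 (0.072) and 0.22 for Syn3 (0.377).

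Among the matrix metalloproteinases, Mmp23, Mmp12, Mmp11 and Mmp14 rose. Mmp23, a membrane-anchored enzyme that is shed by a furin-type cut, lies on chromosome 4 at 155650655 to 155653384. It had 13.7, 27.1, 41.7 and 40.2 CPM in knockout libraries 512, 513, 515 and 516, against 5.61, 4.39, 4.84 and 3.995 CPM in control libraries 511, 514, 517 and 518. The knockout libraries spread widely, with 512 lowest, yet all lay above the controls, and Mmp23 rose by 2.70 (SE 0.328, edgeR adjusted p = 0.000599). Per kilobase its level in knockout tissue, 21.6, was the highest of the Mmp genes, and in control tissue, at 3.32, it lay below Mmp19, Mmp2, Mmp15, Mmp14, Mmp28, Mmp24 and Mmp3.

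Mmp12, the macrophage elastase, was rare but separated the groups. Its deposited counts were 37, 76, 83 and 108 in knockout libraries, against 18.5, 3, 17 and 22 in control libraries. As CPM these were 1.48, 2.86, 3.27 and 4.04 in knockout and 0.702, 0.120, 0.749 and 0.8292 in control libraries, and Mmp12 rose by 2.27 (SE 0.471, edgeR adjusted p = 0.00646). Macrophage marker sums, in the same library order, were 209.6, 222, 256 and 319 CPM in knockout and 185, 117, 215 and 179 CPM in control libraries. Control library 514 was lowest in both, whereas among controls the sum was highest in 517 and Mmp12 in 518. Whether these sums bear on Mmp12 was not tested. Mmp12 shares 3.94% of its exon bases with Mmp1b on the opposite strand, and Mmp1b had no count in any library.

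The other genes of the chromosome 9 cluster differed in level. Mmp3, stromelysin-1, had 7.46, 5.94, 7.02 and 11.1 CPM in knockout and 8.73, 3.11, 6.69 and 7.65 CPM in control libraries, and was not called (log2 fold change 0.27, edgeR adjusted p = 0.527). Mmp13, collagenase-3, had 0.642, 0.752, 0.710 and 1.35 CPM in knockout and 0.507, 0.559, 0.352 and 0.452 CPM in control libraries. Its groups did not overlap, but it was not called (log2 fold change 0.88, edgeR adjusted p = 0.0510). The remaining 7 genes of the cluster were untested, 5 of them without a count.

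Mmp11 and Mmp14 rose by smaller amounts. Mmp11, stromelysin-3, had 10.51, 11.996, 11.3 and 13.3 CPM in knockout and 4.91, 8.58, 6.25 and 7.12 CPM in control libraries (log2 fold change 0.81, SE 0.169, edgeR adjusted p = 0.00675). Mmp14, the membrane-type collagenase and activator of pro-MMP2, had 23.1, 20.8, 23.3 and 26.4 CPM in knockout and 17.3, 15.0, 18.0 and 14.7 CPM in control libraries (log2 fold change 0.53, SE 0.104, edgeR adjusted p = 0.00537). Neither overlapped between groups. Of the 5 tested membrane-type genes Mmp14 alone was called, and Mmp15 stood at 56.7 ± 3.81 CPM in knockout and 59.9 ± 4.92 CPM in control tissue (SD, n = 4 each; edgeR adjusted p = 0.468).

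The gelatinases, which cut denatured collagen and collagen IV, were not called. Mmp2 had 52.1, 39.6, 48.1 and 53.8 CPM in knockout and 41.2, 37.7, 50.6 and 46.9 CPM in control libraries (log2 fold change 0.13, edgeR adjusted p = 0.413). Mmp9 was much lower, at 7.10, 6.51, 7.34 and 8.15 CPM in knockout and 6.32, 3.35, 5.77 and 4.18 CPM in control libraries. Its groups did not overlap and it missed the threshold (log2 fold change 0.57, edgeR adjusted p = 0.0532). Mmp19, a widely expressed secreted member and the most abundant Mmp gene per kilobase in control tissue, had 53.8 ± 6.54 CPM in knockout and 66.7 ± 7.06 CPM in control tissue (SD, n = 4 each; log2 fold change -0.31, edgeR adjusted p = 0.0549). It was called in 2 of 17 alternatives, without control library 514 (0.0242) and with DESeq2 (0.0416), and 29.0% of its exon bases lie opposite Tmem198b and Gm47093, so its reads cannot be told apart from theirs there. Summed over the family, Mmp RNA was 104.3 ± 13.3 CPM per kilobase in knockout and 82.4 ± 4.01 in control libraries (SD, n = 4 each). Mmp23 alone gave 21.6 of that sum in knockout and 3.32 in control tissue, most of the difference.

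Among the ADAM genes, 2 of 8 tested sheddase genes rose, 2 fell and 4 were not called. For comparison, 15.4% of all tested genes were called higher and 18.9% lower. Adam12, an ADAM of mesenchymal cells and fat cell precursors, had 25.4, 21.1, 19.5 and 18.4 CPM in knockout and 36.9, 45.9, 36.5 and 51.1 CPM in control libraries. Its groups did not overlap, and Adam12 fell by 1.01 (SE 0.140, edgeR adjusted p = 0.00105). Adam17, which releases TNF and EGF receptor ligands, had 45.2, 49.5, 50.5 and 47.5 CPM in knockout and 54.7, 52.1, 60.2 and 68.9 CPM in control libraries (log2 fold change -0.29, SE 0.0930, edgeR adjusted p = 0.0380). That call was not stable. It was lost without knockout library 512 (0.0878), 513 (0.0740), 515 (0.0618) or 516 (0.0874) and without control library 517 (0.0736) or 518 (0.0909), and under other scalings (0.0510 to 0.505). In the authors' deposited table the FDR of Adam17 was 0.106.

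Adam15, a catalytically active member known from vessels, had 88.0, 103, 107 and 106 CPM in knockout and 88.5, 73.5, 71.5 and 63.3 CPM in control libraries. Knockout library 512 fell just below control library 511, and Adam15 rose by 0.44 (SE 0.108, edgeR adjusted p = 0.0138). Of its exon bases 24.7% lie opposite 4731419I09Rik. Adam33 had 5.15 ± 0.831 CPM in knockout and 3.17 ± 0.723 CPM in control tissue (SD, n = 4 each; log2 fold change 0.70, edgeR adjusted p = 0.0245), with overlapping groups. Its call was lost without knockout library 512 (0.0621), 515 (0.0576) or 516 (0.0632) or control library 514 (0.0556) or 517 (0.0569).

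Adam9 and Adam10 were among the most abundant ADAM genes and were not called. Adam9 had 93.0 ± 5.22 CPM in knockout and 101 ± 4.69 CPM in control tissue (SD, n = 4 each; edgeR adjusted p = 0.184). Adam10, the main sheddase of Notch receptors and cadherins, had 49.1 ± 2.24 CPM in knockout and 44.1 ± 4.18 CPM in control tissue (SD, n = 4 each; log2 fold change 0.15, edgeR adjusted p = 0.164), and was called in 1 of 17 alternatives, library sizes alone (0.0108). With Adam17 at 48.2 ± 2.33 CPM in knockout tissue, the main pair of sheddases stood at like levels there, at 10.8 CPM per kilobase for Adam10 and 11.02 for Adam17. In control tissue the values were 9.68 for Adam10 and 13.5 for Adam17.

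Adam11, Adam22 and Adam23 encode ADAMs without protease activity that bind partners at the cell surface and are best known from neurons. Adam11 had 19.0, 25.4, 32.3 and 25.3 CPM in knockout and 11.03, 14.8, 12.3 and 9.35 CPM in control libraries, and rose by 1.10 without overlap (SE 0.183, edgeR adjusted p = 0.00237). Adam22 had 4.65, 4.74, 6.00 and 6.28 CPM in knockout and 3.27, 3.79, 2.91 and 4.79 CPM in control libraries (log2 fold change 0.55, edgeR adjusted p = 0.0489). The Adam22 call was lost without a filter on low counts (0.0607), without any of knockout libraries 512, 513, 515 and 516 (0.0540 to 0.127) or control libraries 511, 514 and 517 (0.0787 to 0.106), and its FDR in the authors' deposited table was 0.084. Adam23 was not called (log2 fold change 0.36, edgeR adjusted p = 0.265).

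**Figure D3:**
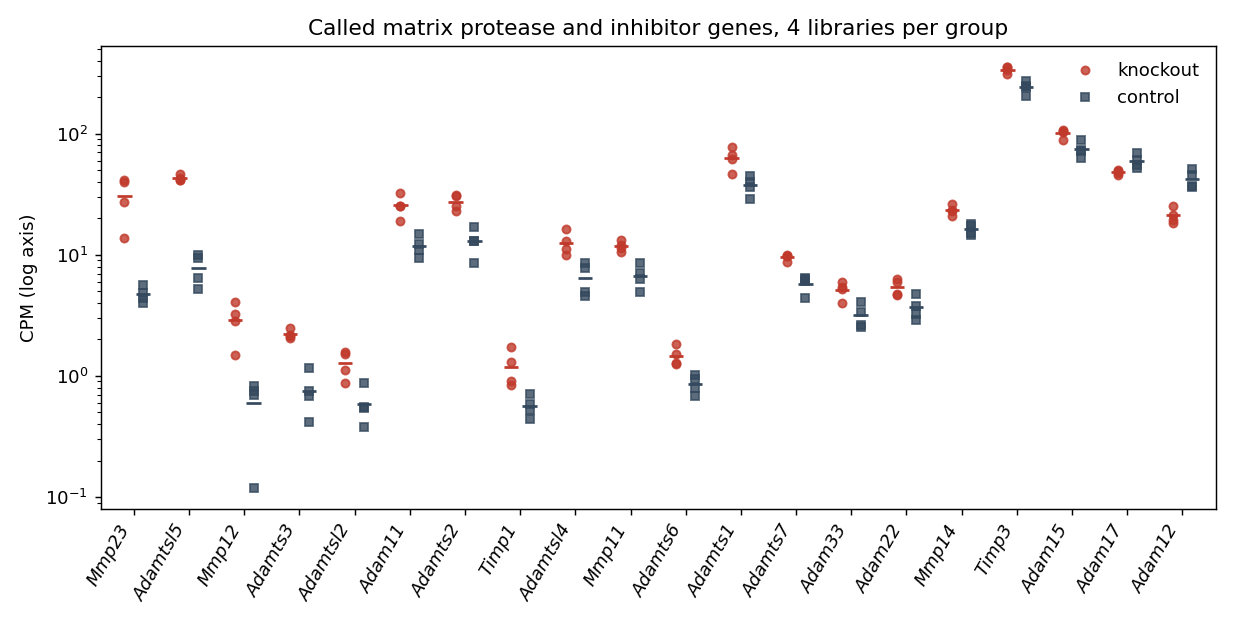
CPM per library (vertical log axis) of the 20 called genes, ordered by fold change from left to right, with knockout libraries (red circles) left of control libraries (dark squares) and dashes at the group means. The groups separate in Mmp23 and Adamtsl5 and overlap in Adamtsl2, Adam33, Adam22 and Adam15; the lowest point is Mmp12 in control library 514.

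Among the ADAMTS genes, 2 of the 3 whose enzymes remove the N-propeptide of fibrillar procollagens rose. Adamts2, whose loss causes a skin fragility disorder in people and mice, had 31.1, 25.2, 23.0 and 30.6 CPM in knockout and 17.03, 13.01, 12.99 and 8.59 CPM in control libraries. It rose by 1.09 without overlap (SE 0.194, edgeR adjusted p = 0.0033). Adamts3, which also activates VEGF-C in lymphatic growth, had 2.05, 2.18, 2.13 and 2.47 CPM in knockout and 1.17, 0.678, 0.749 and 0.415 CPM in control libraries. It rose by 1.55 (SE 0.280, edgeR adjusted p = 0.00352). Adamts14, the remaining propeptidase, had 2.21 ± 0.222 CPM in knockout and 1.82 ± 0.608 CPM in control tissue (SD, n = 4 each; edgeR adjusted p = 0.434). In control tissue, library 518 was lowest for all 3 genes.

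Of 6 tested proteoglycanases, which cut aggrecan and versican, 1 was called, against 34.4% of all tested genes. Adamts1, also known as an inhibitor of vessel growth, had 46.3, 77.3, 61.8 and 66.9 CPM in knockout and 44.3, 40.3, 28.6 and 36.1 CPM in control libraries. Adamts1 rose by 0.76 (SE 0.172, edgeR adjusted p = 0.00973), with knockout library 512 close to the highest control. Adamts9 had 28.4 ± 1.16 CPM in knockout and 34.2 ± 9.55 CPM in control tissue (SD, n = 4 each; edgeR adjusted p = 0.247). Adamts20 had 1.684, 1.504, 1.736 and 1.495 CPM in knockout libraries against 0.780, 0.479, 1.41 and 3.84 CPM in control libraries, the widest relative spread in the control group among members that averaged 1 CPM or more, and was not called (log2 fold change -0.03, edgeR adjusted p = 0.973). Without control library 518 its log2 fold change was 0.88 (0.0793).

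The genes linked to COMP or fibrillin microfibrils gave 2 calls of 5, against 34.4% of all tested genes. Adamts7, which cuts COMP, had 9.83, 8.76, 9.94 and 9.68 CPM in knockout and 6.04, 6.38, 6.25 and 4.37 CPM in control libraries, and rose by 0.73 without overlap (SE 0.139, edgeR adjusted p = 0.00439). Adamts6 had 1.84, 1.504, 1.26 and 1.27 CPM in knockout and 1.01, 0.678, 0.793 and 0.942 CPM in control libraries (log2 fold change 0.77, SE 0.218, edgeR adjusted p = 0.0239). Its call was lost without knockout library 512 (0.0613) or 513 (0.0623) or control library 514 (0.0599) or 517 (0.0534). Adamts10, a paralog of Adamts6 that binds fibrillin-1, had 39.2, 39.1, 41.2 and 42.0 CPM in knockout and 33.8, 32.7, 37.6 and 23.9 CPM in control libraries. The groups did not overlap, but it was not called (log2 fold change 0.34, edgeR adjusted p = 0.0633). It was called in 7 of 17 alternatives, namely without control library 517 or 518 (0.0343 and 0.0361), with upper quartile factors (0.0319), library sizes alone (0.00843), DESeq2 (0.0347) or limma (0.0384), and with a filter of at least 1 CPM (0.0445).

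The ADAMTS-like genes were above 0 in all 5 cases, and 3 were called. Adamtsl5, a fibrillin-binding protein, lies on chromosome 10 at 80340716 to 80348446. It had 46.2, 41.4, 41.2 and 43.0 CPM in knockout and 9.94, 6.42, 5.20 and 9.35 CPM in control libraries. The knockout libraries lay close together and far above the controls, and Adamtsl5 rose by 2.47 (SE 0.190, edgeR adjusted p = 0.000108), the smallest p among these genes. Adamtsl4 had 16.3, 9.97, 12.9 and 11.2 CPM in knockout and 7.80, 4.55, 4.93 and 8.52 CPM in control libraries (log2 fold change 0.96, SE 0.236, edgeR adjusted p = 0.0137). Adamtsl2 had 1.52, 1.58, 0.868 and 1.12 CPM in knockout and 0.546, 0.559, 0.881 and 0.377 CPM in control libraries (log2 fold change 1.11, SE 0.306, edgeR adjusted p = 0.0216). Adamtsl2 overlapped between the groups, and its call was lost without knockout library 512 (0.0542) or 513 (0.0659). Summed per kilobase, ADAMTS-like RNA was 25.1 ± 1.16 in knockout and 7.76 ± 2.20 in control libraries (SD, n = 4 each), and in knockout tissue Adamtsl5 gave 18.1 of that sum.

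Genes that work beside these proteases were described from 5 lists, of which those called with the smallest p, and a few chosen after their values were seen, are named. Their counts of calls stand beside 15.4% higher and 18.9% lower over all tested genes. The first is the plasminogen system, which makes plasmin, an activator of pro-MMPs. Serpine2, protease nexin-1, had 87.7, 92.8, 84.98 and 101 CPM in knockout and 38.9, 32.7, 40.8 and 37.2 CPM in control libraries (log2 fold change 1.29, edgeR adjusted p = 6.61e-05). The urokinase receptor gene Plaur also rose (1.03, edgeR adjusted p = 0.0329) and the plasminogen receptor gene Plgrkt fell (-0.32, edgeR adjusted p = 0.0325). The activator genes Plat and Plau were not called (edgeR adjusted p = 0.109 and 0.194).

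Of 16 other matrix proteases 5 rose and 0 fell (median 0.48). Prss12, neurotrypsin, had 6.66, 12.03, 9.86 and 15.7 CPM in knockout and 0.741, 0.958, 1.19 and 1.24 CPM in control libraries (log2 fold change 3.42, edgeR adjusted p = 0.000168), with a wide gap between the groups. Prss23 rose by 0.85 (edgeR adjusted p = 0.00713) and the fibroblast activation protein gene Fap by 0.48 (0.0429). The procollagen C-proteinases Bmp1 and Tll1 rose by 0.43 (edgeR adjusted p = 0.0119) and 0.94 (0.0358). The cathepsins Ctsb, Ctsk, Ctsl and Ctss were not called (edgeR adjusted p = 0.0809 to 0.194).

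Of 22 tested inhibitors and accessory genes 8 rose and 5 fell (median 0.25). Pcolce, the enhancer of procollagen C-proteinase, had 81.1, 117, 173 and 152 CPM in knockout and 55.0, 40.0, 57.8 and 25.6 CPM in control libraries (log2 fold change 1.55, edgeR adjusted p = 0.00422), and Pcolce2 rose by 1.16 (0.00881). Called genes of procollagen propeptide removal were Adamts2 and Adamts3 for the N-terminal side and Bmp1, Tll1, Pcolce and Pcolce2 for the C-terminal side. Adamts14 was not called, Tll1 overlapped between the groups, and these genes were not tested as a set. The substrate genes Col1a1, Col1a2 and Col3a1 had log2 fold changes of 0.42, 0.51 and 0.56 and were not called (edgeR adjusted p = 0.262, 0.163 and 0.22). Lrp1, the receptor that clears many of these proteases and TIMP complexes, rose by 0.45 (0.0084), Wfdc1 rose by 1.24 (0.00867), and Reck, a membrane inhibitor of MMPs, rose by 0.37 (0.0471).

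Regulators of ADAM10 and ADAM17 went both ways. Rhbdf2, which encodes the iRhom2 cofactor of ADAM17, rose by 0.56 (edgeR adjusted p = 0.0431), and Rhbdf1 was not called (0.37, edgeR adjusted p = 0.112). Among tetraspanins that escort ADAM10, Tspan5 and Tspan33 rose by 0.45 (edgeR adjusted p = 0.0334) and 1.23 (0.0254), Tspan14 and Tspan15 had log2 fold changes of -0.40 (0.0115) and -0.41 (0.0351) and so fell, and Tspan17 was not called (0.754). Furin, the convertase that cuts many ADAM and membrane-type MMP prodomains, was not called (-0.17, edgeR adjusted p = 0.134), while its relative Pcsk7 fell (-0.34, edgeR adjusted p = 0.0136). Bsg, the MMP-inducing surface protein basigin, fell too (-0.30, edgeR adjusted p = 0.0256), as did the collagen chaperone gene Serpinh1 (-0.40, edgeR adjusted p = 0.0447).

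The genes of proteins that these enzymes cut were counted as well. Of 26 tested matrix substrates 9 rose and 0 fell (median 0.42, with all 26 above 0). Bcan, brevican, had 3.21, 5.83, 9.23 and 5.83 CPM in knockout and 0.0780, 0.0798, 0.132 and 0.0754 CPM in control libraries (edgeR adjusted p = 8.16e-05), and the control values rest on a few counts each. Fbn1, the fibrillin-1 that ADAMTS and ADAMTS-like proteins bind, rose by 0.69 (edgeR adjusted p = 0.00367). Thbs1 rose by 1.57 (0.0111), Bgn by 0.63 (0.0245) and Tnc by 1.12 (0.0246). The versican gene Vcan was not called (0.41, edgeR adjusted p = 0.174).

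Of 29 tested genes of shed surface proteins 14 rose and 3 fell (median 0.49). Cx3cl1, the chemokine released by ADAM10 and ADAM17, had 17.3, 20.9, 15.5 and 15.6 CPM in knockout and 4.48, 5.43, 4.49 and 3.54 CPM in control libraries (log2 fold change 1.95, edgeR adjusted p = 0.000137). Tgfa, an EGF receptor ligand, had 8.30, 8.05, 6.75 and 6.95 CPM in knockout and 2.69, 2.39, 2.29 and 2.37 CPM in control libraries (log2 fold change 1.62, edgeR adjusted p = 0.000138). Sdc1 rose by 0.69 (0.00084), Icam1 by 0.84 (0.0016), Egf by 0.96 (0.0126), Btc by 0.76 (0.0314) and Tnf, at most 1.26 CPM in any library, by 1.53 (0.0260). The 3 genes that fell were Nrg4, a growth factor made by brown fat (-0.64, edgeR adjusted p = 0.00293), Klb (-0.59, edgeR adjusted p = 0.0146) and Notch2 (-0.52, edgeR adjusted p = 0.0326).

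**Figure D4:**
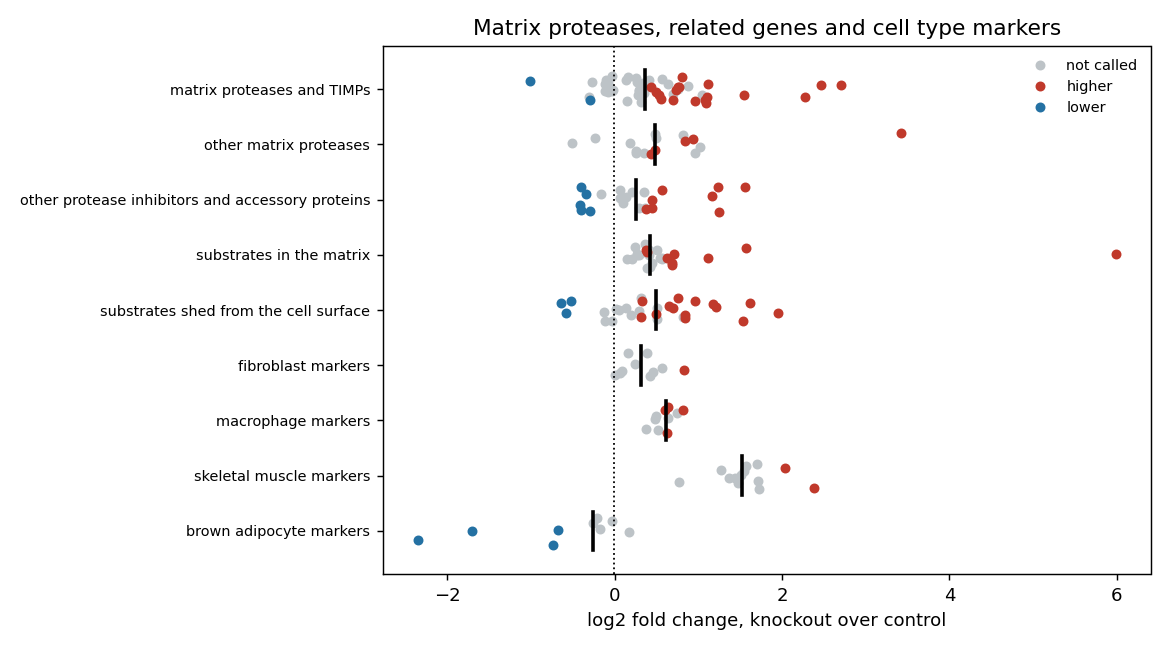
Log2 fold change of knockout over control (horizontal axis) of the tested protease and TIMP genes, of 4 lists of related genes and of 4 cell type marker lists, 1 point per gene, jittered within its row. Red points are called higher, blue lower and grey not called, the bar is each list's median (0.36 for the proteases and TIMPs), and the dotted line is the median of all tested genes (-0.01).

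Markers of the cells in the tissue were summed per library and their calls counted. Over all tested genes 15.4% were called higher and 18.9% lower, and most marker lists had few calls. The brown adipocyte list of 9 genes summed to 12096 to 13708 CPM in knockout and 18292 to 24638 CPM in control libraries. A large part of these sums was Fabp4, at a mean of 6024 CPM in knockout and 10003 CPM in control tissue. Of the 9 genes 4 fell, Ucp1, Cox8b, Fabp4 and Elovl3. Markers of macrophages, a known source of Mmp12, summed to 209.6 to 319 CPM in knockout and 117 to 215 CPM in control libraries, and 4 of 10 genes rose, Cd68, Csf1r, C1qa and C1qb. The fibroblast list summed to 1628 to 2397 CPM in knockout and 911 to 1882 CPM in control libraries, and 1 of 10 genes rose, Cd34, while Pdgfra stayed uncalled (0.16, edgeR adjusted p = 0.465). Schwann cell and nerve markers summed to 414 to 466 CPM in knockout and 280 to 371 CPM in control libraries, with Mal and S100b higher among 8 tested.

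Skeletal muscle markers differed most between libraries and also between the groups. Their median log2 fold change was 1.53, the largest of the marker lists, and all 14 genes were above 0. In 12 of the 14 all knockout libraries lay above all control libraries, as in 15.7% of all tested genes. The muscle markers summed to 7213 to 15413 CPM in knockout libraries, highest in 512. In control libraries they summed to 298 to 6070 CPM, lowest in 514. Myh2 and Mb were called higher among the 14. Endothelial markers had 0 of 8 called and summed to 1179 to 1392 CPM in knockout and 1224 to 1408 CPM in control libraries. Smooth muscle and pericyte markers summed to 598 to 726 CPM in knockout and 616 to 729 CPM in control libraries. Of these 8 genes Cspg4 alone was called, as lower, while 7 had log2 fold changes above 0 (list median 0.14). Mast cell markers summed to 46.2 to 56.9 CPM in knockout and 43.7 to 173 CPM in control libraries. A large part of these sums was Kit, at a mean of 42.0 CPM in knockout and 97.2 CPM in control tissue. Kit was called lower, with overlapping groups. Of the 6 tested mast cell genes 2 had log2 fold changes above 0 and 4 below (list median -0.13). Neutrophil markers summed to at most 4.64 CPM in knockout and 7.44 CPM in control libraries, with 0 of 3 tested genes called, and lymphocyte markers to at most 7.42 CPM in knockout and 19.1 CPM in control libraries, with 0 of 7 called. Erythroid and lymph node markers summed to 1052 to 1545 CPM in knockout and 785 to 1214 CPM in control libraries, with 0 of 7 called. The part of these marker differences in the protease results was not tested.

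Library 512, with the highest muscle sum, was the lowest knockout library for 23 of the 51 tested genes (45.1%), against 32.0% of all tested genes, and for 10 of the 18 genes that rose. Control library 518, with the lowest fibroblast sum, was the lowest control library for 19 of the 51 (37.3%), against 30.3% of all tested genes. Without library 512, 16 of the tested members were called higher, and without library 518, 20 were. Of the 20 called genes 18 also had an FDR under 0.05 with the same sign in the authors' deposited table.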

How the data were processed

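Total RNA of brown adipose tissue from 4 knockout and 4 control mice was prepared with Trizol and read by the standard Illumina procedure, per the labels' protocols. Alignment to mm10 with TopHat 2 and the use of HOMER, edgeR and DESeq 1.8.3 are named in the submitters' processing notes. The deposited estimated counts are unadjusted HOMER counts of both strands over RefSeq exons, as the file headers give them, in steps of 0.5 (36.9% of values were not whole), and were rounded before testing. The authors' deposited comparison gives a log2 fold change and an FDR (p-value), per the file headers, which name control before knockout and do not state the direction. The fold change was read as knockout over control, because Adamtsl5 stands at 2.45 there and its counts were higher in knockout libraries. Exon length came from the count table. Every column was matched to a library by its number.

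Of 30521 rows, 829 name no symbol and held 0.0608% to 0.0824% of a library's counts. The row with the highest total stood for each of 23372 genes (13 members have several rows). edgeR 4.0.16 in R 4.3.3 kept 14178 genes (filterByExpr, minimum count 10) and tested knockout against control by the two-sided quasi-likelihood test with TMM factors, without covariates, p-values adjusted by Benjamini-Hochberg and called under 0.05. TMM factors were 1.05 to 1.10 in knockout and 0.898 to 0.961 in control libraries. The SE is the fold change divided by the square root of F. The test was checked on simulated data in which known genes were changed by a set factor (50 genes for each factor). Changes by a factor of 1.25 were found in 2% of those genes, and changes by 1.5 in 32%. Larger changes, by a factor of 2 or 4, were found in 94% and 100%. Only these genes among 14178 simulated ones were changed, and every gene was given the same dispersion. In the data 34.4% of tested genes were called, so these shares need not hold there. A gene that was not called may still have changed by a small factor. Replicates did not agree within sampling noise (lowest chi-square per degree of freedom 13.1), with correlations of log2 CPM of 0.970 to 0.993 within groups and 0.950 to 0.977 between them. Exon overlap was read from GENCODE annotation of mm10.

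Members and lists were chosen with earlier results of these data known. Genes named singly are all called members, the Timp genes, the 5 most abundant per family, those with the largest or smallest relative spread, and up to 4 called genes per list; other names were chosen after their values were seen. Of 283 list entries 282 were matched, 1 of them by a RefSeq synonym (Adgre1, listed as Emr1). Alternatives used other scaling (relative log expression, upper quartile, library sizes alone), DESeq2 1.42.0, limma 3.58.1 (voom with sample weights), other filters, summed rows, rounding down and leaving out each library. A planned description of protein motifs was not run. The counts of the plasminogen system list are not reported here.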

Additional observations from a re-analysis of the deposited data

Results flagged for a closer look

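In 62 groups of 4 libraries (31 genes in each condition), 2 had a library that stood apart from the other 3 by more than Dixon's 95% critical value for the gap over the group's range; chance gives this in about 1 in 20 groups. Mmp19 was low in knockout library 512, at 44.0 CPM against 56.0 to 57.8 CPM in the other knockout libraries (gap over range 0.870). Adamts7 was low in control library 518, at 4.37 CPM against 6.04 to 6.38 CPM in the other control libraries (gap over range 0.830). Library 512 had the highest skeletal muscle marker sum of the knockout libraries, and library 518 had the highest of the control libraries; whether this bears on either value was not tested.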

How the results depend on the processing

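The count of members called higher was 18 and lay between 15 and 27 over 17 alternatives, 15 to 20 when single libraries were left out. The count of members called lower was 2. It was 1 with relative log expression factors, upper quartile factors, library sizes alone or a filter of at least 1 CPM, and 1 to 3 when single libraries were left out. Of the 20 called members 14 were called in each of the alternatives and 6 lost the call in some (Adam17, Adam22, Adam33, Adamts6, Adamtsl2 and Timp1), and 0 of the 20 reversed. Adamtsl2 and Timp1 gave no value under the filter of at least 1 CPM. The log2 fold change of Kdm1a was -1.47 to -1.39 without single libraries. Uncalled genes near 0 changed sign in places. Adam9 was 0.0798 with library sizes alone, and Mmp15 was 0.0242 with upper quartile factors and 0.12 with library sizes alone. Timp4 was 0.000524 with relative log expression factors, 0.0840 with upper quartile factors, 0.18 with library sizes alone, 0.0210 with the filter of at least 1 CPM, and -0.12 to 0.18 without single libraries. Adamts20 was 0.0822 with upper quartile factors, 0.15 with library sizes alone, 0.66 with limma, 0.0442 with summed rows, and -0.34 to 0.88 without single libraries. The cause of these changes was not tested. No paired analysis was possible because the replicate numbers in the labels differ between the groups. Depth limits the rare genes: 33 members could not be tested at this depth.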
